A study of Mus musculus with 11 samples.

Results

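The RNA sequencing counts of 10 genes of the blood vessel wall and of vascular endothelial growth factor (VEGF) signalling were followed through the pancreas and the epididymal adipose tissue. The genes were Vegfa, Vegfb, Angpt2, Flt1, Kdr, Tek, Pecam1, Cdh5, Sox7 and Sox18, and they were taken by gene name. All 10 were found among the 54532 genes of the pancreas table and among the 46078 genes of the adipose table. The 4 groups came from wild-type C57BL/6 mice, 16 weeks of age, assigned to a diet when they were 4 to 5 weeks old. Control mice, with 2 pancreas and 3 adipose samples, were lean animals that ate a diet with 10% of its calories as fat for 12 weeks and were injected with saline. Mice with obesity-related alcohol-induced acute pancreatitis (OA-AP), with 3 samples of each tissue, ate a diet with 60% of its calories as fat over the same 12 weeks and were injected intraperitoneally with ethanol, 2 g/kg in each of 2 injections given 1 h apart. Tissue was taken 12 h after the first injection. Diet, body weight, ethanol and pancreatitis therefore differ together between the groups and cannot be told apart.

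Blood vessels are lined by endothelial cells. VEGF-A, made by many cells of a tissue, acts on them mainly through the receptor tyrosine kinase VEGFR2, the product of Kdr, and is the main signal for vessel growth and leakiness. VEGFR1, the product of Flt1, binds VEGF-A tightly but signals weakly and is often described as a trap for it, and it is also the receptor of VEGF-B, a relative of VEGF-A known mostly from tissues that burn fat. The second system of the vessel wall is Tie2, the product of Tek, which is kept active by angiopoietin-1 and which angiopoietin-2, released by activated endothelium, can counter. Pecam1 (CD31) and Cdh5 (VE-cadherin) encode adhesion molecules of endothelial junctions, and Sox7 and Sox18 encode transcription factors of the SOXF family that act in endothelial identity and vessel development.

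The pancreas libraries held between 14188832 and 17238919 counts on genes and the adipose libraries between 20825177 and 27928097. The unit of a level is CPM, the count after every library of a tissue is brought to the same effective total with edgeR's TMM factors. The tissue labels fitted their markers, since 12 acinar genes took 38.2% to 49.9% of the counts in the pancreas, and 10 adipocyte genes summed to between 39024 and 49903 CPM in adipose tissue. 2 libraries stood apart by RNA of other cells. Adipose control replicate 2 carried 5430 CPM of the acinar genes, against 8.50 to 18.5 CPM in the other adipose libraries. Pancreas OA-AP replicate 3 had 102 CPM of 8 neutrophil genes, against 4.28 and 14.2 CPM in the other OA-AP libraries and 1.89 and 2.89 CPM in the controls. A gene was called when its Benjamini-Hochberg adjusted p-value from edgeR's quasi-likelihood test, over all genes tested in the tissue, was under 0.05 and its fold change at least 1.5. All 10 genes passed the filter on low counts in both tissues. In bulk RNA, fewer of the cells that hold a gene's RNA, endothelial or other, and less of that RNA per cell cannot be told apart.

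In the pancreas of OA-AP mice Vegfb and Kdr fell, and the other 8 genes were not called. The 2 calls among 10 genes, both lower, stand beside 29.8% of all 12884 tested genes called, 13.5% lower and 16.2% higher, so the share of called genes was no larger than the background. The 2 groups did not overlap for 7 of the 10 genes, against 62.4% of all genes. In adipose tissue 4 of the 10 genes were called, against 25.1% of 15839 tested genes. Flt1 and Angpt2 rose there, where 12.1% of all genes were called higher, and Sox7 and Vegfb fell, where 13.0% were called lower. The groups did not overlap for 6 of the 10 genes in adipose tissue, against 52.4% of all genes. The median log2 fold change of the 10 genes was −0.29 in the pancreas, beside 0.04 over all genes, and 0.26 in adipose tissue, beside −0.01. Scaling by library totals alone, without TMM, moved the median over all genes to 0.75 in the pancreas and to −0.17 in adipose tissue, and the share of calls that were higher moved from 54.5% to 92.0% and from 48.1% to 32.1%. Values under that scaling are set against these medians. Without pancreas OA-AP replicate 3 Vegfb (−2.58) and Kdr (−0.93) stayed called and Vegfa (−0.60) and Tek (−0.70) were added as lower. Without adipose control replicate 2 the 4 adipose genes stayed called and Sox18 (0.63) was added as higher.

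**Figure D1:**
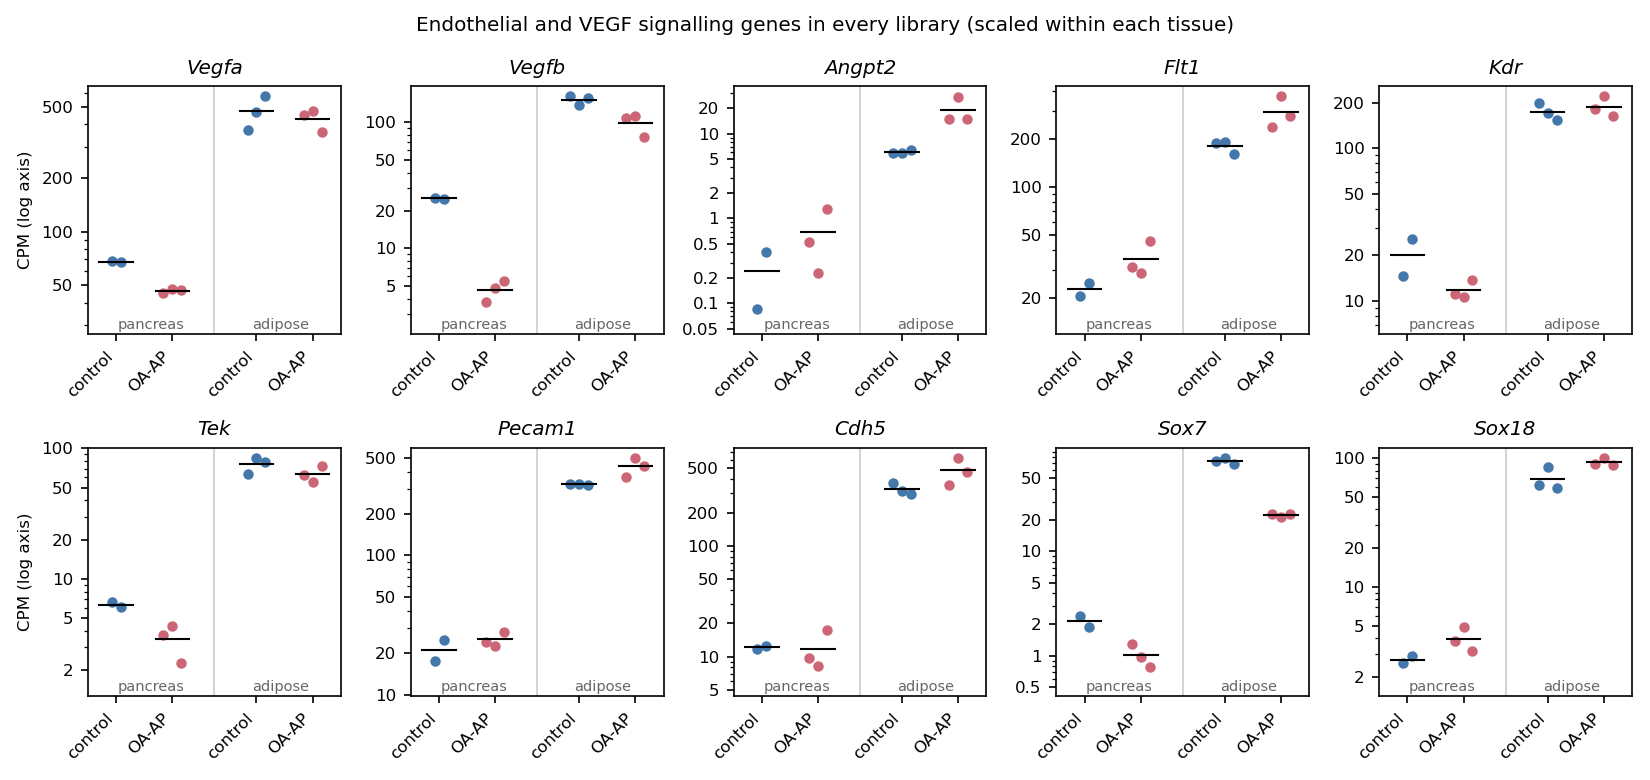
CPM on a log axis for each of the 10 genes, with 1 point per library (blue, control; red, OA-AP) and a line at each group's mean; pancreas (2 and 3 libraries) is on the left and adipose tissue (3 and 3) on the right of each panel, scaled apart. The 2 groups are apart for Vegfb in the pancreas (24.6 to 25.3 against 3.77 to 5.54 CPM) and for Sox7 (69.2 to 78.5 against 21.4 to 23.1 CPM) and Angpt2 (5.90 to 6.46 against 14.9 to 27.4 CPM) in adipose tissue.

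Of the ligands, Vegfb (ENSMUSG00000024962, chromosome 19, 6982473 to 6987651 on the minus strand of GRCm38) had the largest change of the 10 genes in the pancreas. It stood at 25.3 and 24.6 CPM in the 2 control libraries and at 3.77, 4.86 and 5.54 CPM in the 3 OA-AP libraries. The groups were tight and far apart. The means were 24.9 ± 0.482 (SD, n = 2) and 4.72 ± 0.888 CPM (SD, n = 3), and the gene fell on the log2 scale by 2.40 (95% interval of the change −2.83 to −1.97, edgeR adjusted p = 0.000165), which is 5.27-fold. This call held under every scaling, filter and tool tried and without any 1 library, with log2 fold changes from −2.58 to −1.70. The value of −1.70 came from library totals alone, under which the median of all genes was 0.75.

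Vegfb also fell in adipose tissue, but less. Its level was 161, 138 and 155 CPM in the control libraries and 109, 113 and 76.85 CPM in the OA-AP libraries, so that the groups did not overlap. The log2 fold change was −0.61 (95% interval −0.98 to −0.24, edgeR adjusted p = 0.0218), or 1.52-fold lower, just past the fold required. The call was lost without control replicate 1 (−0.55), control replicate 3 (−0.58) or OA-AP replicate 3 (−0.45), while the direction stayed. The difference between the tissues was itself tested in a fit of all 11 libraries. Vegfb was the 1 gene of the 10 called there, against 20.6% of 17046 genes and 10.4% called in that direction, with an adipose change 1.78 above the pancreatic change on the log2 scale (standard error 0.25, edgeR adjusted p = 0.000635). That call held in every setting, with differences between 0.95 and 1.92.

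Vegfa (ENSMUSG00000023951, chromosome 17, 46016993 to 46032369, minus strand) was not called in either tissue. In the pancreas it was at 68.3 and 67.6 CPM in controls and at 45.2, 47.6 and 47.4 CPM in OA-AP mice. The 2 groups were tight and did not overlap. The log2 fold change of −0.54 (standard error 0.12, edgeR adjusted p = 0.0105) was 1.45-fold, under the fold required for a call, and with library totals alone it turned to 0.17, which is below the 0.75 of all genes under that scaling. In adipose tissue the control libraries read 370, 468 and 577 CPM and the OA-AP libraries 451, 477 and 363 CPM. The adipose groups overlapped, and control replicate 3 was the highest of the 6 libraries (log2 fold change −0.14, 95% interval −0.58 to 0.30, edgeR adjusted p = 0.592).

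The promoters of these 2 ligands are shown because Vegfb was called in both tissues and Vegfa in neither. The sequences are the 250 bases before the start site in RefSeq on GRCm38.p6, both read on the minus strand, for Vegfa (start site 1 of 2) at chr17:46032378-46032627 and for Vegfb at chr19:6987652-6987901.
Vegfa: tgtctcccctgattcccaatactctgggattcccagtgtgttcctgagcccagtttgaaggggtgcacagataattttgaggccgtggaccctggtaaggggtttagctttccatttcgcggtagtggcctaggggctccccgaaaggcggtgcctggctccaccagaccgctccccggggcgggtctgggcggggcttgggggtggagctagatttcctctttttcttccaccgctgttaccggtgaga
Vegfb: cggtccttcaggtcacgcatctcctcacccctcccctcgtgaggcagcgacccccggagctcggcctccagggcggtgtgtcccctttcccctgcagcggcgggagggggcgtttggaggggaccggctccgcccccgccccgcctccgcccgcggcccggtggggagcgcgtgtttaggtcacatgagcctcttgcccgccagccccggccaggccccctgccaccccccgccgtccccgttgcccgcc
Both windows were searched on both strands for ACGTG (the core of the hypoxia response element), CCGGAA (ETS factors), AACAAT (SOX factors) and TGANTCA (AP-1), and any match would stand in capitals. Neither of these windows held any of the 4. The window before the other Vegfa start site (start site 2), not printed, held ACGTG on the reverse strand, 211 bases before that start. Of 32851 windows of this length 16.6% held ACGTG, 12.0% CCGGAA, 9.42% AACAAT and 6.75% TGANTCA. In base composition they differed, with 59.2% G and C in the Vegfa window and 76.4% in the Vegfb window, beside a median of 52.4% over all windows. A match, or its absence, in a window of this length only describes the letters.

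Since both ligands come from the same library, their ratio does not depend on scaling. It was 2.702 and 2.75 in the control pancreas and 8.56 to 12.0 in the OA-AP pancreas. In adipose tissue it was 2.30 to 3.72 in controls and 4.12 to 4.72 in OA-AP mice. The ratio was thus higher in every OA-AP library than in every control library of its tissue, by 1.88 on the log2 scale in the pancreas and 0.50 in adipose tissue (exact two-sided permutation test, p = 0.1 in each, the smallest p that these sample numbers allow).

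Angpt2 (ENSMUSG00000031465, chromosome 8, 18690263 to 18741562, minus strand), the ligand released by activated endothelium, rose in adipose tissue. The control libraries held 5.90, 5.99 and 6.46 CPM and the OA-AP libraries 15.02, 27.4 and 14.9 CPM. Every OA-AP library was above all controls, with replicate 2 the highest. The log2 fold change was 1.64 (95% interval 1.04 to 2.24, edgeR adjusted p = 0.00373), a 3.11-fold rise, and it stayed called in every setting with values from 1.29, without OA-AP replicate 2, to 1.79. In the pancreas the gene was close to its detection limit, with 1 and 4 counts in the control libraries and 10, 4 and 25 counts in the OA-AP libraries. The groups overlapped, OA-AP replicate 3 was the highest, and a change was not detectable at this depth (log2 fold change 1.54, 95% interval −0.76 to 3.83, edgeR adjusted p = 0.267).

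Of the receptors, Flt1 (ENSMUSG00000029648, chromosome 5, 147561604 to 147726011, minus strand) rose in adipose tissue. Its control libraries read 188, 192 and 160 CPM and its OA-AP libraries 238, 371 and 279 CPM. The groups did not overlap, and OA-AP replicate 2 was again the highest. The log2 fold change was 0.71 (95% interval 0.30 to 1.13, edgeR adjusted p = 0.0191), 1.64-fold. The call was lost with library totals alone (0.57, above the −0.17 of all genes). It was also lost without control replicate 1 (0.75), control replicate 3 (0.65) or OA-AP replicate 2 (0.52). In the pancreas Flt1 stood at 20.5 and 24.9 CPM in controls and at 31.5, 28.7 and 45.9 CPM in OA-AP mice. These groups did not overlap either, and the estimate was 0.64 (95% interval 0.13 to 1.16), but its edgeR adjusted p of 0.0593 missed the threshold. It was called with library totals alone (1.34, above the 0.75 of all genes), without a filter (0.72), with at least 10 counts in every library (0.65) and without OA-AP replicate 2 (0.77). Without pancreas OA-AP replicate 3, the library rich in neutrophil RNA, it was 0.37 and not called.

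Kdr (ENSMUSG00000062960, chromosome 5, 75932827 to 75978458, minus strand), the gene of the main VEGF-A receptor, fell in the pancreas. The 2 control libraries differed from each other, at 14.7 and 25.6 CPM, and the OA-AP libraries lay at 11.1, 10.6 and 13.8 CPM. The lower control was only slightly above the highest OA-AP library. The log2 fold change was −0.76 (95% interval −1.33 to −0.20, edgeR adjusted p = 0.0459), 1.70-fold lower. This call rested on single libraries, since it was lost without control replicate 2 (−0.31), OA-AP replicate 1 (−0.72) or OA-AP replicate 2 (−0.69). With library totals alone the value was −0.04 and not called, below the 0.75 of all genes under that scaling. Over the alternatives the adjusted p ranged from 0.00159 to 0.896. In adipose tissue the values were 200, 171 and 153 CPM in controls and 181, 220 and 163 CPM in OA-AP mice. The adipose groups overlapped, with a log2 fold change of 0.10 (95% interval −0.25 to 0.46). With library totals alone this was −0.05, above the −0.17 of all genes under that scaling. The difference between the tissues, 0.85 on the log2 scale, was not called (edgeR adjusted p = 0.0642), although DESeq2 called it at 0.89.

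The promoter windows of these paired receptor genes, again 250 bases before the RefSeq start on the minus strand of GRCm38.p6, lie at chr5:75978456-75978705 for Kdr and chr5:147726012-147726261 for Flt1. They are printed so that the VEGF-A receptors can be set side by side.
Kdr: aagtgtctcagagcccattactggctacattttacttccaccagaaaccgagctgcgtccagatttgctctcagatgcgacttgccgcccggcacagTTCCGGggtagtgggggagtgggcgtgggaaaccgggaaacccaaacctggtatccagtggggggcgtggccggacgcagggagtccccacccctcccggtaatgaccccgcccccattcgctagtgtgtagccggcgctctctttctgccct
Flt1: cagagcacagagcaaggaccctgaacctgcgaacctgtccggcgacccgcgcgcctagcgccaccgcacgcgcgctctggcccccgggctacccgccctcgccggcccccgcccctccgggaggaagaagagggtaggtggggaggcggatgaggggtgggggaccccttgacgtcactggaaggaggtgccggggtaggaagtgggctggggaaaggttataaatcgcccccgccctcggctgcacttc
The capitals in Kdr mark its only match, to CCGGAA on the reverse strand, 153 bases before the start. Flt1 held none of the 4 motifs. Promoter windows of Pecam1, Cdh5, Sox7, Sox18 and Angpt2 were not used here, and that of Tek held a single match, to AACAAT, 63 bases before its start.

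The ratio of Flt1 to Kdr was higher in every OA-AP library of both tissues. It was 1.40 and 0.97 in the control pancreas and 2.72 to 3.33 in the OA-AP pancreas. In adipose tissue it ran from 0.94 to 1.12 in controls and from 1.31 to 1.71 in OA-AP mice. On the log2 scale the shift was 1.34 in the pancreas and 0.59 in adipose tissue (exact two-sided permutation test, p = 0.1 in each, the smallest possible), and the pancreatic shift lay between 1.08 and 1.599 when either control library was left out.

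**Figure D2:**
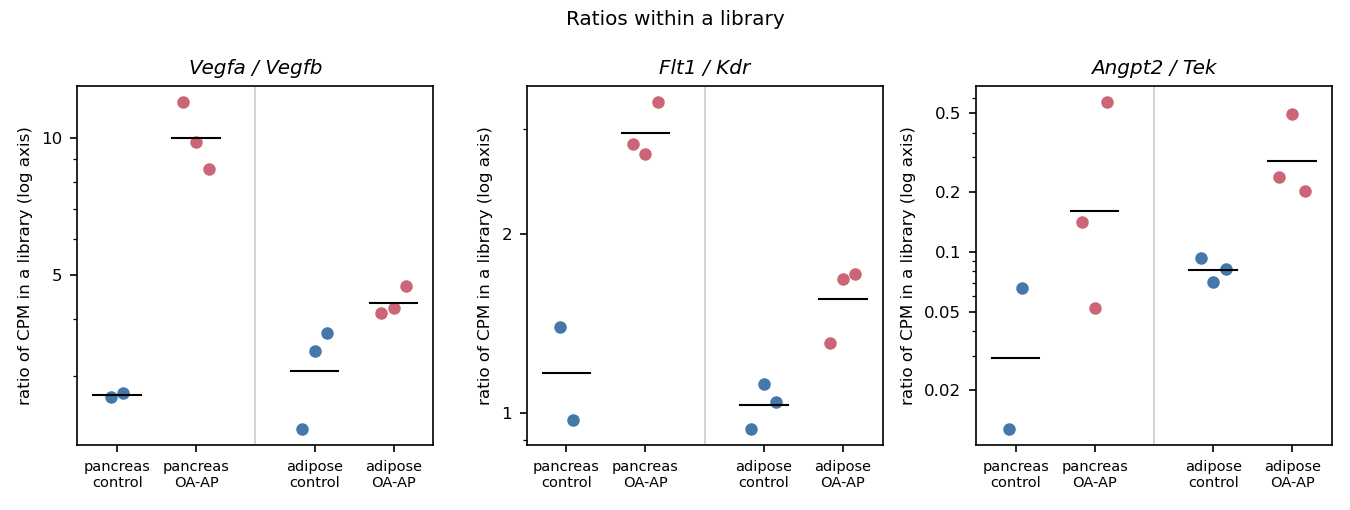
Ratio of CPM within each library on a log axis for Vegfa to Vegfb, Flt1 to Kdr and Angpt2 to Tek (blue, control; red, OA-AP; line, geometric mean), with 2 and 3 pancreas libraries and 3 and 3 adipose libraries. The OA-AP points lie above all control points of their tissue in every panel except Angpt2 to Tek in the pancreas, where the groups overlap.

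Tek (ENSMUSG00000006386, chromosome 4, 94739289 to 94874976, plus strand), the gene of the angiopoietin receptor, was not called in either tissue. Its pancreas values were 6.69 and 6.08 CPM in controls and 3.72, 4.40 and 2.30 CPM in OA-AP mice. These did not overlap, but the edgeR adjusted p was 0.0573 at a log2 fold change of −0.88 (95% interval −1.58 to −0.18). It was called by DESeq2 and with its size factors (−0.92 in each), without a filter (−0.81) and without OA-AP replicate 2 (−1.09) or 3 (−0.70). With library totals alone the value was −0.16, below the 0.75 of all genes under that scaling. In adipose tissue the controls held 63.4, 84.9 and 79.2 CPM and the OA-AP libraries 62.7, 55.3 and 73.6 CPM, with a log2 fold change of −0.25 (95% interval −0.60 to 0.09). The adipose groups overlapped. With Angpt2 higher, the ratio of Angpt2 to Tek in adipose tissue went from between 0.071 and 0.093 in controls to between 0.202 and 0.495 in OA-AP mice, 1.83 higher on the log2 scale (exact two-sided permutation test, p = 0.1, the smallest possible). The pancreatic ratio rested on few Angpt2 counts, and its ranges of 0.0128 to 0.0656 and 0.052 to 0.568 overlapped.

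Of the endothelial transcription factors, Sox7 (ENSMUSG00000063060, chromosome 14, 63943673 to 63950732, plus strand) fell in adipose tissue by more than any other of the 10 genes. It was at 73.7, 78.5 and 69.2 CPM in the control libraries and at 22.7, 21.4 and 23.1 CPM in the OA-AP libraries. Both groups were tight and far apart. The log2 fold change was −1.73 (95% interval −1.94 to −1.52, edgeR adjusted p = 0.000179), or 3.31-fold lower. It was called in every setting, with values from −1.88 to −1.67, and without control replicate 2, the library with acinar RNA, it was −1.67. In the pancreas Sox7 read 2.40 and 1.89 CPM in controls and 1.31, 0.97 and 0.78 CPM in OA-AP mice. The pancreatic groups did not overlap and the estimate was −1.07 (95% interval −1.99 to −0.14), with an edgeR adjusted p of 0.0742. It was called there with at least 10 counts in every library (−1.06, edgeR adjusted p = 0.0405).

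Sox18 (ENSMUSG00000046470, chromosome 2, 181669836 to 181671640, minus strand), from the same SOXF family, was not called in either tissue. Its adipose levels were 62.0, 85.3 and 58.5 CPM in controls and 89.55, 101 and 87.9 CPM in OA-AP mice. All OA-AP libraries were higher than all controls, but the log2 fold change of 0.43 (95% interval 0.06 to 0.80, edgeR adjusted p = 0.0685) was not called. It was called, at 0.63, without control replicate 2. In the pancreas the values were 2.57 and 2.89 CPM in controls and 3.83, 4.86 and 3.19 CPM in OA-AP mice, again without overlap, at a log2 fold change of 0.53 (95% interval −0.16 to 1.23). With library totals alone this was 1.25, still above the 0.75 of all genes, and it was called (edgeR adjusted p = 0.0130).

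The junction genes Pecam1 and Cdh5 were not called in either tissue. Pecam1 (ENSMUSG00000020717, chromosome 11, 106654217 to 106750628, minus strand) read 327, 327 and 323 CPM in adipose controls and 365, 505 and 442 CPM in OA-AP adipose tissue. The groups did not overlap, and the change of 0.42 on the log2 scale passed the adjusted p (0.0497, edgeR) but, at 1.34-fold, not the fold required. In the pancreas it was at 17.4 and 24.7 CPM in controls and at 24.0, 22.4 and 28.4 CPM in OA-AP mice, which overlapped (0.25, 95% interval −0.19 to 0.68). Pancreatic Pecam1 was called with library totals alone (0.96, above the 0.75 of all genes). Cdh5 (ENSMUSG00000031871, chromosome 8, 104101625 to 104144511, plus strand) had adipose values of 366, 315 and 296 CPM in controls and 357, 623 and 463 CPM in OA-AP mice. These overlapped, and the log2 fold change was 0.56 (95% interval 0.07 to 1.04, edgeR adjusted p = 0.0723). It was called, at 0.74, without OA-AP replicate 1. In the pancreas Cdh5 stood at 11.7 and 12.6 CPM in controls and at 9.75, 8.23 and 17.2 CPM in OA-AP mice. OA-AP replicate 3 was the highest and the other 2 the lowest of the 5 libraries. The estimate of −0.04 (95% interval −0.77 to 0.69) became −0.47 without OA-AP replicate 3 and 0.65 with library totals alone, which is below the 0.75 of all genes.

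**Figure D3:**
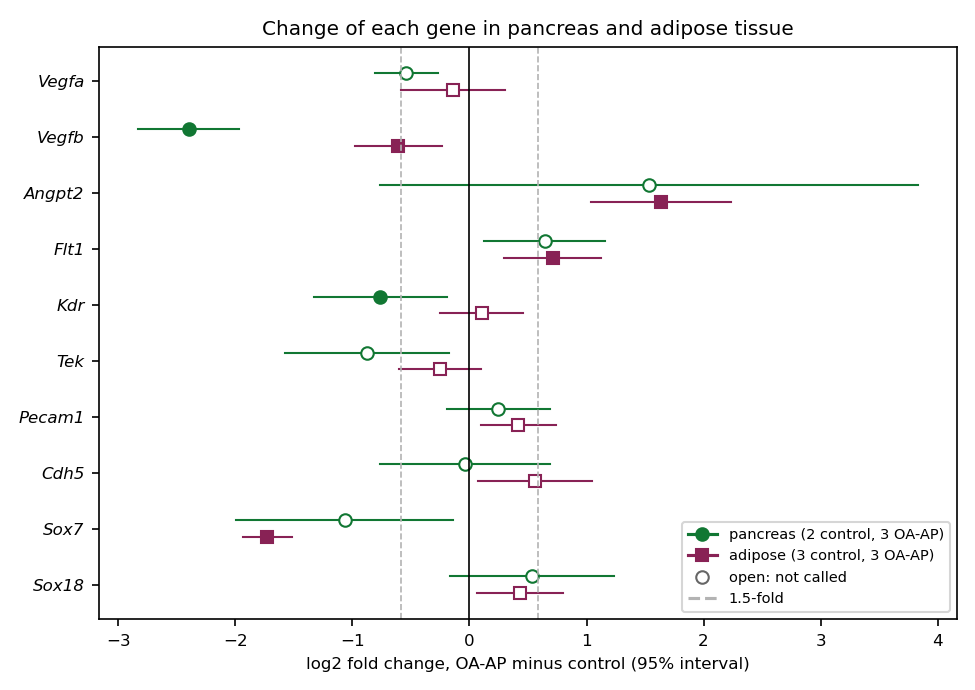
Log2 fold change of each gene (OA-AP minus control) with its 95% interval, circles for the pancreas (2 and 3 libraries) and squares for adipose tissue (3 and 3); filled symbols are called and dashed lines mark a 1.5-fold change. Vegfb is called lower in both tissues, with intervals of −2.83 to −1.97 and −0.98 to −0.24 that do not touch.

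The level of each gene was also set against the summed CPM of 30 other pan-endothelial markers, among them Tie1, Cldn5, Erg and Vwf. In adipose tissue 2 of the 30 markers were called, both higher, which is 6.67% against 25.1% of all genes. The sum there was 2974 to 3041 CPM in controls and 2979 to 3724 CPM in OA-AP mice. Against this sum Sox7 was 1.85 lower on the log2 scale, Vegfb 0.75 lower, Flt1 0.57 higher and Angpt2 1.46 higher, all without overlap (exact two-sided permutation test, p = 0.1 each, the smallest possible). Pecam1, not called, was 0.29 higher without overlap (exact two-sided permutation test, p = 0.1). Kdr, at −0.02, overlapped, as did Cdh5 (0.41), Sox18 (0.33), Vegfa (−0.25) and Tek (−0.37). In the pancreas the sum was 201 to 213 CPM in controls and 160 to 183 CPM in OA-AP mice. The direction of this difference depended on scaling. As a share of all counts, without TMM, the 30 markers took 0.0148% and 0.0160% in control pancreas and 0.0203% to 0.0218% in OA-AP pancreas. Under library totals alone the median log2 fold change over all genes was 0.75. With TMM, 3 of the 30 markers were called higher and 5 lower in the pancreas, with a median log2 fold change of −0.26. The share called was 26.7%, against 29.8% of all genes. Relative to the sum Vegfb was 2.16 lower and Flt1 0.87 higher, each without overlap (exact two-sided permutation test, p = 0.1 each). Pecam1 (0.51) and Vegfa (−0.28) did not overlap either (exact two-sided permutation test, p = 0.1 each). The same held for Sox7 (−0.84), Sox18 (0.77) and Tek (−0.67), with p = 0.2 each in that permutation test. Cdh5 (0.14) and Angpt2 (1.80) overlapped. Kdr overlapped at −0.47, and this value was −0.10 without control replicate 2. Neither the sum nor the ratio separates cell number from RNA per cell.

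Per kilobase of gene length, with the length the authors list, the 2 ligands Vegfa and Vegfb led in control tissue. In the control pancreas Vegfa was at 15.9 ± 0.112 (SD, n = 2) and Vegfb at 15.5 ± 0.300 CPM per kilobase, so that their means differed by about the spread of Vegfb. Pecam1 followed at 3.38 ± 0.829, Cdh5 at 2.88 ± 0.150, Kdr at 2.23 ± 0.857, Sox18 at 1.69 ± 0.138 and Flt1 at 1.68 ± 0.231 CPM per kilobase, and each of these overlapped its neighbour. Below them were Tek at 1.35 ± 0.091, Sox7 at 0.651 ± 0.109 and Angpt2 at 0.066 ± 0.060 CPM per kilobase. In the OA-AP pancreas Vegfb was at 2.94 ± 0.553 (SD, n = 3), a level between Pecam1 (4.00 ± 0.501) and Flt1 (2.62 ± 0.680).

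In control adipose tissue the order was Vegfa at 110 ± 24.1 (SD, n = 3), Vegfb at 94.3 ± 7.53 and Cdh5 at 77.5 ± 8.65 CPM per kilobase, each overlapping the next. Pecam1 at 52.3 ± 0.381 and Sox18 at 42.3 ± 9.01 overlapped as well. Sox7 at 22.4 ± 1.42, Kdr at 19.3 ± 2.59, Tek at 16.1 ± 2.36 and Flt1 at 13.3 ± 1.29 CPM per kilobase formed a further run of neighbours that overlapped, and Angpt2 was lowest at 1.66 ± 0.082. In OA-AP adipose tissue Sox7 was at 6.78 ± 0.268 and Flt1 at 21.9 ± 5.04 CPM per kilobase (SD, n = 3 each), so their order was exchanged.

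**Figure D4:**
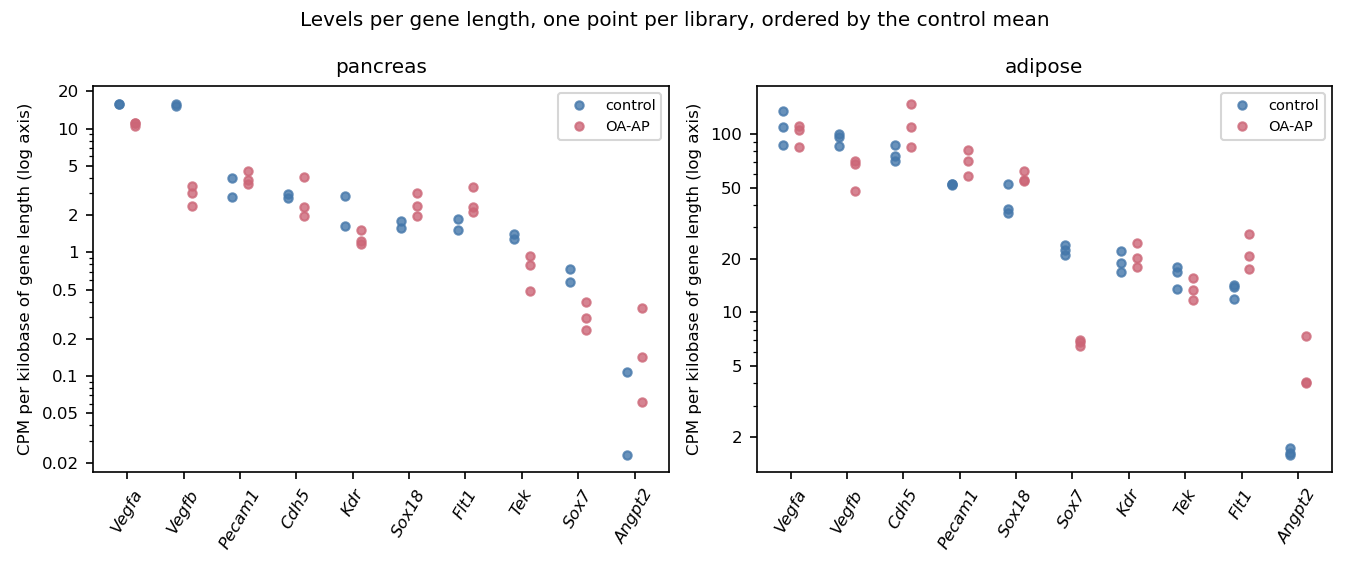
CPM per kilobase of gene length on a log axis, 1 point per library (blue, control; red, OA-AP), for pancreas (2 and 3 libraries) and adipose tissue (3 and 3), with genes ordered by the control mean. Vegfa and Vegfb lead in both control tissues, and Vegfb drops from 15.5 to 2.94 in the pancreas while Sox7 drops from 22.4 to 6.78 in adipose tissue.

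Control adipose tissue had more of all 10 genes than control pancreas in the fit of all 11 libraries. The 10 calls, all higher in adipose tissue, stand beside 55.5% of all genes called and 29.4% called higher in adipose tissue. The log2 differences were 0.63 for Vegfb, 0.83 for Vegfa, 1.02 for Flt1, 1.15 for Kdr, 1.599 for Tek and 1.99 for Pecam1. They were largest for Sox18 (2.68), Angpt2 (2.74), Cdh5 (2.78) and Sox7 (3.12). The median of the 10 was 1.79, beside 0.22 over all genes, and library totals alone moved the median over all genes to 2.67, with single values of 3.10 (Vegfb) to 5.58 (Sox7). The Vegfb call was lost without pancreas control replicate 1 (0.69) or 2 (0.62), and the Angpt2 call without control replicate 1 (edgeR adjusted p = 0.114).

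The other VEGF ligands and receptors, a list of 6 genes, had 1 call among 5 tested genes in the pancreas and 1 among 6 in adipose tissue. Neither share was larger than that of all genes called, 29.8% in the pancreas and 25.1% in adipose tissue. Nrp1, a coreceptor for VEGF, rose in the pancreas by 0.98 on the log2 scale (22.1 ± 4.50 CPM in 2 controls, 43.6 ± 7.03 CPM in 3 OA-AP mice, SD, edgeR adjusted p = 0.00655), and was at −0.05 in adipose tissue. The lymphatic growth factor gene Vegfc fell in adipose tissue by 1.26 on the log2 scale (6.70 ± 0.919 and 2.81 ± 0.657 CPM, SD of 3 libraries each, edgeR adjusted p = 0.00599), and was not tested in the pancreas. Its receptor gene Flt4 (0.81 and 0.24 in pancreas and adipose tissue), Vegfd (1.14 and −0.27), Pgf (−0.21 and 1.13) and the second coreceptor gene Nrp2 (−0.83 and 0.31) were not called.

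In the angiopoietin-Tie list of 5 other genes, Angpt1, the activating ligand of Tie2, fell in both tissues. In the pancreas it stood at 6.43 ± 0.361 CPM in 2 controls and 1.04 ± 0.704 CPM in 3 OA-AP mice (SD), and it fell by 2.63 on the log2 scale (edgeR adjusted p = 0.00682). Its adipose level was 32.2 ± 4.07 CPM in controls and 17.6 ± 6.82 CPM in OA-AP mice (SD of 3 each), a fall by 0.88 (edgeR adjusted p = 0.0355). Svep1, a matrix protein, rose in both, by 1.17 in the pancreas (edgeR adjusted p = 0.0192) and 0.80 in adipose tissue (edgeR adjusted p = 0.00905). Tie1, the partner of Tie2 (−0.61 and 0.15), and Ptprb, a phosphatase acting on Tie2 (−0.27 and −0.49), were not called, nor was the low-count gene Angpt4 in adipose tissue (0.89).

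A list of 20 genes acts downstream of VEGF receptors or in their feedback. Of 19 tested in the pancreas 8 were called higher and 1 lower, with a median log2 fold change of 0.55. Of all genes there 16.2% were called higher and 13.5% lower. In adipose tissue 7 of 20 were called higher and 0 lower by edgeR, with a median of 0.42. Of all genes there 12.1% were called higher and 13.0% lower. Hspb1, a small heat shock protein, rose in both, by 3.28 in the pancreas (edgeR adjusted p = 0.0398) and 2.39 in adipose tissue (edgeR adjusted p = 0.000179). Src, a kinase, and Mapkapk2, a kinase of the p38 pathway, rose in the pancreas by 1.46 and 1.90. Sphk1, which makes sphingosine-1-phosphate, rose in adipose tissue by 4.32 (3.10 ± 1.15 CPM in controls, 62.2 ± 18.6 CPM in OA-AP mice, SD of 3 each), and the phosphatase gene Dusp5 rose there by 1.58. Many of these genes act in other cells and pathways too.

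Of the 13 hypoxia genes tested in the pancreas 5 were called higher and 0 lower, and of 15 in adipose tissue 5 were called higher and 2 lower. Over all tested genes 16.2% were called higher and 13.5% lower in the pancreas, and 12.1% and 13.0% in adipose tissue. Ldha, of glycolysis, rose in both, by 1.40 and 0.96. Ddit4 and Bnip3 rose in the pancreas by 3.66 and 1.80, while Hif1a and the glucose transporter gene Slc2a1 rose in adipose tissue by 1.23 and 1.78. Among the inhibitors of vessel growth 2 of 5 were called higher in the pancreas and 2 of 7 in adipose tissue, and none lower in edgeR's test. The share of inhibitors called in adipose tissue, 28.6%, was near the 25.1% of all genes. Adamts1 rose in both, by 2.45 and 2.10, Thbs1 in the pancreas by 3.41 and Thbs2 in adipose tissue by 2.17.

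Venous and activation genes were called higher in adipose tissue for 5 of 9 genes and lower for 0, against 12.1% and 13.0% of all genes. Selp, the P-selectin gene, rose there by 2.65 on the log2 scale (9.13 ± 0.767 CPM in controls, 57.7 ± 20.4 CPM in OA-AP mice, SD of 3 each, edgeR adjusted p = 0.00114), and Ackr1, a marker of venules, rose by 2.04. Lrg1 rose by 2.51 in adipose tissue and by 7.87 in the pancreas, where it was the 1 call among 8 tested genes and read 7.71 ± 0.231 CPM in 2 controls and 1797 ± 536 CPM in 3 OA-AP mice (SD). Lrg1 is also made by other cells, such as hepatocytes and neutrophils. Of 16 Notch and arterial genes 3, or 18.75%, were called higher in the pancreas, near the 16.2% of all genes called higher there. Notch1 was among them at 1.59. In adipose tissue Gja5 rose by 1.14 and Heyl fell by 0.93. The called pan-endothelial markers that were abundant included Plvap and Cd34 in the pancreas, which fell by 0.64 and 1.08, and Ecscr and Acvrl1 in adipose tissue, which rose by 1.66 and 1.05.

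**Figure D5:**
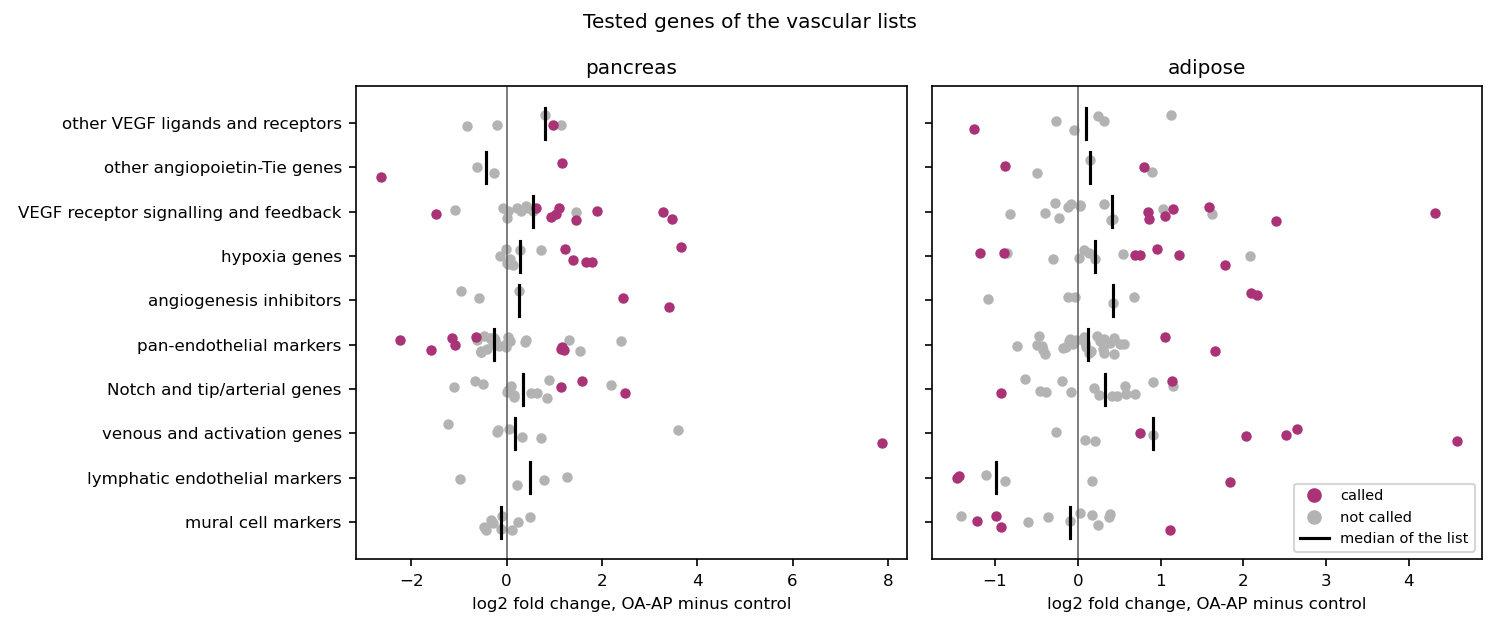
Log2 fold change (OA-AP minus control) of every tested gene of 10 vascular lists in the pancreas and in adipose tissue, coloured where called, with a bar at each list's median; points are spread vertically only to be seen. Venous and activation genes in adipose tissue have 5 of 9 genes called higher, against 12.1% of all genes. The VEGF receptor signalling list has 8 of 19 called higher in the pancreas, against 16.2% of all genes.

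Markers of other cells moved with the groups as well. Beside their counts, 12.1% of all genes were called higher and 13.0% lower in adipose tissue, and 16.2% and 13.5% in the pancreas. In adipose tissue the neutrophil list was at 17.1 to 35.7 CPM in controls and 153 to 191 CPM in OA-AP mice, with 5 of 6 tested genes called higher and 0 lower. The macrophage list (725 to 952 and 795 to 1284 CPM) had 4 of 8 higher and 1 lower, and 5 of 10 fibroblast and mesothelial genes and 4 of 7 T and B cell genes were called lower. Of 10 adipocyte genes 1 was higher and 2 lower. In the pancreas 9 of 12 acinar genes were called lower, their sum being 609159 to 715156 CPM in controls and 290043 to 379649 CPM in OA-AP mice. The size of that fall depended on scaling. As a share of the pancreas counts, without TMM, the 12 genes took 48.3% and 49.9% in controls and 38.2% to 42.2% in OA-AP mice. The 10 adipocyte genes summed there to 54.7 to 70.9 and 160 to 291 CPM, with 3 of 4 tested genes called higher. The pancreatic neutrophil list had none of 7 tested genes called by edgeR, although their median log2 fold change was 4.92. Its sum was 1.89 to 2.89 CPM in controls and 4.28 to 102 CPM in OA-AP mice, without overlap. Of 8 pancreatic macrophage genes 1 was called lower. The defining neutrophil gene Ly6g was too low to be tested in either tissue, and no islet gene was tested in adipose tissue. The part of these cells in the changes of the 10 genes was not tested.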

How the data were processed

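RNA from the pancreas (2 control and 3 OA-AP samples) and epididymal adipose tissue (3 and 3) was sequenced. The authors trimmed the reads with Trim Galore (0.6.6), ran fastp (0.20.1), mapped to GRCm38 with STAR and assigned reads to genes with featureCounts (2.0.1), and they deposited whole-number counts without normalization. The annotation release and the strand setting are not given in the sources used here. The 10 genes, the 18 pathway and marker lists and the alternatives were chosen with earlier results of these data known.

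Each tissue's whole table was filtered with filterByExpr, scaled with TMM and tested with edgeR (4.0.16, quasi-likelihood, robust), and p-values were adjusted over all tested genes. Both tissues were fitted together on genes in both tables to compare responses and control levels. The standard error of a log2 fold change is its size over the square root of F. Ratios are log2 ratios within a library, compared by an exact permutation test. Lists are described by counts and medians. Tests were checked on simulated data in which as many genes were raised as lowered. That check does not bear on how the libraries were scaled.

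Genes named outside the 10 were all those of the VEGF and angiopoietin-Tie lists, and in each other vascular list up to 3 per tissue with the largest called change and a mean log2 CPM of at least 3; some of these are left out. Other lists were of acinar, ductal, islet, adipocyte, fibroblast and mesothelial, macrophage, neutrophil, and T and B cells. No pair of replicate libraries was a repeat deposit, since chi-square divided by its degrees of freedom was at least 7.56 in every pair. The labels do not say that samples of a group came from separate mice, so p-values measure the spread between these samples.

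Alternatives were DESeq2 (1.42.0), its size factors in edgeR, library totals, TMM without acinar genes, no filter, at least 10 counts in every library, a replicate block, and each library left out. A gene length listed by the authors beside the counts gave levels per kilobase. Vegfd was matched by gene identifier in adipose tissue, where it is named otherwise. Coordinates are those of the authors' table and of GENCODE M21, where no other gene shared exon bases with the 10.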

Additional observations from a re-analysis of the deposited data

Results flagged for a closer look

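The change with OA-AP differed between the tissues for Vegfb and for 17 named genes of the vascular lists, by edgeR's test of the difference itself over all 11 libraries (adjusted p under 0.05 and at least 1.5-fold). By the same test 20.6% of all 17046 genes were called. Outside the VEGF and angiopoietin-Tie lists, genes were named for a large called change in a tissue of these same data. That choice favours a difference between the tissues, so their number is not a result about the lists. Values are the adipose log2 change minus the pancreatic one. For Vegfb the difference was 1.78, with a fall in both tissues. Among VEGF coreceptors it was −1.04 for Nrp1 and 1.13 for Nrp2. In the angiopoietin-Tie list it was 1.75 for Angpt1, which fell in both tissues, and 4.32 for Angpt4, whose 0 to 1 counts in each pancreas OA-AP library and 3 and 6 counts in the controls make that value depend on the prior count. Of pan-endothelial markers Plvap differed by 0.89, Ecscr by 1.25 and Acvrl1 by 1.34. The arterial gene Notch1 differed by −1.79, the venous and activation gene Lrg1 by −5.37 and Mcam, of the mural list, by −1.501. Of genes downstream of VEGF receptors Src differed by −1.75, Mapkapk2 by −1.88 and Sphk1 by 3.91. The inhibitor gene Thbs2 differed by 1.92. Of hypoxia genes Bnip3 differed by −1.73, Slc2a1 by 1.78 and Ddit4 by −3.46. Library totals alone moved the median difference over all genes from −0.06 to −0.88.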

How the results depend on the processing

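Vegfb in the pancreas, Sox7 and Angpt2 in adipose tissue and the tissue difference of Vegfb kept their direction and their call under every alternative. The number of the 10 genes called in the pancreas was 2, and 4 with library totals, without a filter and with at least 10 counts in every library, and 3 with DESeq2 and with its size factors, which added Tek. It was 1 to 4 when a library was left out. In adipose tissue it was 4, and 3 with library totals, where Flt1 was lost, and 2 to 5 with a library left out. For the difference between tissues it was 1, and 5 with library totals, 2 with DESeq2 and 1 to 4 with a library left out. For control tissues it was 10, and 8 to 10 with a library left out. Library totals reversed Cdh5 (0.65) and Vegfa (0.17) in the pancreas, Kdr in adipose tissue (−0.045), and the tissue differences of Pecam1 (−0.69), Cdh5 (−0.23), Kdr (−0.00122), Flt1 (−0.77), Vegfa (−0.45), Angpt2 (−0.74) and Tek (−0.24). Pancreas Cdh5 was also reversed without a filter (0.032). With a library left out, values crossed 0 for pancreas Cdh5 (−0.47 to 0.15), adipose Kdr (−0.022 to 0.22) and Vegfa (−0.28 to 0.042), and for the tissue differences of Pecam1 (−0.10 to 0.39), Sox18 (−0.28 to 0.050), Flt1 (−0.19 to 0.29) and Angpt2 (−1.35 to 0.92). None of these genes was called in the main test of that comparison, but with library totals the reversed tissue differences of Pecam1 and Flt1 were themselves called (edgeR adjusted p = 0.0304 and 0.0471). Under that scaling the median tissue difference over all genes was −0.88, and 6153 of the 6527 calls were lower. All the reversed tissue differences, Pecam1 and Flt1 included, lay above that median. The cause of the reversals was not tested. Over all genes the calls in the pancreas went from 3834 to 6349 with library totals and to 1687 and 1495 without control replicate 1 or 2. Calls of the tissue difference went from 3507 to 6527 with library totals, and to 2332 without pancreas control replicate 2. For control tissues they went from 9454 to 15368 with library totals and to 5808 with at least 10 counts in every library.

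The labels do not say that a replicate number marks a shared mouse, within a tissue or across tissues, and libraries were treated as independent, also in the fit of all 11. In adipose tissue the same-numbered control and OA-AP libraries correlated in their deviations at −0.01, 0.06 and −0.16, and 0 of 6 libraries correlated best with their own number. Same-numbered libraries of different tissues correlated at −0.085 to 0.090. With a replicate block the calls among the 10 genes remained 2, 4, 1 and 10. With at most 25 counts in a pancreas library, small changes of Angpt2 there were not detectable.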

Other observations

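Lymphatic and mural genes moved in both directions in adipose tissue, where 13.0% of all genes were called lower and 12.1% higher. Of 6 lymphatic genes 2 were called lower and 1 higher, with a median log2 fold change of −0.99. Their summed level went the other way, at 168 to 197 CPM in controls and 235 to 256 CPM in OA-AP mice, without overlap. Ccl21a, a chemokine of lymphatic endothelium, fell by 1.44 (37.5 ± 7.92 CPM in controls, 13.9 ± 4.43 CPM in OA-AP mice, SD of 3 each, edgeR adjusted p = 0.00599). Pdpn, which is also made by fibroblasts and other cells, rose by 1.84 (edgeR adjusted p = 0.00171). Of 13 mural genes 3 were called lower and 1 higher. Myh11, of smooth muscle, fell by 1.22 (edgeR adjusted p = 0.0336), Mcam fell by 0.99 (edgeR adjusted p = 0.00188) and Cspg4, of pericytes, rose by 1.12 (edgeR adjusted p = 0.0499). In the pancreas edgeR called none of the 4 lymphatic and 9 mural genes tested, against 29.8% of all genes. Of the remaining marker lists, 1 of 5 ductal genes fell and 1 of 6 islet genes rose in the pancreas. There edgeR called none of 10 fibroblast and mesothelial genes and not the 1 tested T and B cell gene. In adipose tissue 1 of 5 ductal genes rose and 1 of 4 acinar genes fell. The acinar sum in adipose tissue was 5430 CPM in control replicate 2. It was 12.7 and 8.50 CPM in the other controls and 10.7 to 18.5 CPM in OA-AP mice, so the groups overlapped.

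For each of the 10 genes the most similar of 8964 well-expressed genes (mean log2 CPM 3 or more) was found by Pearson's r of log2 CPM over the 11 libraries, which share the contrast between tissues. These were Ndufv3 for Vegfb (r = 0.988), Agmo for Vegfa (0.966), Galnt18 for both Angpt2 (0.986) and Flt1 (0.980), Psmb7 for Kdr (0.980), Eci1 for Tek (0.991), Hip1 for Pecam1 (0.994), S100a11 for Cdh5 (0.992), Fbxo21 for Sox7 (0.992) and Id1 for Sox18 (0.991). The number of genes with r of at least 0.95 was 20 for Angpt2, 29 for Flt1, 36 for Vegfa and 40 for Vegfb, against 536 for Pecam1 and 531 for Sox18.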
